A study of Rattus norvegicus with 16 samples.

Results

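Cultured rat hippocampal neurons that had been exposed to hydroxyurea for 12 h were compared with cultures exposed for 6 h. The comparison holds 6 of the 15 samples of the series, chosen by their titles alone: 3 treated for 12 h and 3 treated for 6 h. All 6 received the same agent at the same dose, 5 µM, so the contrast is between 2 lengths of one treatment and holds no untreated culture. The remaining samples were treated for 2 or 24 h or left untreated, and they enter here only where a level at 2 or 24 h is named and in alternative fits. Per the labels, the neurons were primary cultures from embryonic day 18 Sprague-Dawley rats, with no genetic change stated, grown for about a week before treatment, and stood in medium with B27 that lacked antioxidants while hydroxyurea was present. Both groups therefore share this change of medium, and time since that change and time in hydroxyurea cannot be told apart. One label names hippocampal tissue as the source of the RNA, whereas the growth and treatment labels describe cultures. Nothing in the labels says that the 3 replicates of a time came from separate cultures. A p-value here therefore sets a difference against the spread among these particular samples, and that spread may be technical.

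Hydroxyurea inhibits ribonucleotide reductase, the enzyme that turns ribonucleotides into the deoxyribonucleotides used for DNA synthesis and repair. In dividing cells the shortage of deoxyribonucleotides stalls replication forks and engages the ATR, CHK1 and p53 pathways. Postmitotic neurons do not replicate their genome, but they use deoxyribonucleotides for DNA repair and for copying mitochondrial DNA, and hydroxyurea also chelates metal and can release nitric oxide.

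RNA was measured on 1-colour Agilent arrays with 30367 distinct probes. A level below is the normalized log2 signal, which is log2 of the background-subtracted signal of a probe minus the 75th percentile of the array, so that 0 is that percentile. A difference is the mean at 12 h minus the mean at 6 h on this log2 scale, and its SE comes from limma's fit. Levels of different probes are not set against each other. The 12 h arrays had 64.6% to 69.7% of probes well above background, against 65.7% to 68.4% for the 6 h arrays, and no spot was saturated. The number of arrays, 3 for each time, limits the precision.

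One library stood apart. On each array 1390 probes were spotted 10 times, and the median coefficient of variation among these replicate spots was 5.22%, 4.11% and 21.8% in 12 h replicates 1, 2 and 3, against 3.55%, 3.35% and 6.87% in the 6 h replicates. Across 18776 probes, 12 h replicate 3 correlated with the other 5 samples at 0.9848 to 0.9866, while each of the other 5 had a partner at 0.9965 or above. The median SD of a probe was 0.212 among the 12 h samples and 0.125 among the 6 h samples, and it was 0.108 among 12 h replicates 1 and 2 alone. Where leaving out 12 h replicate 3 moved a difference named below, or a list's median, by over 1.5 times or turned its sign, the value over the other 5 samples is therefore given as well. The samples also fell on 2 slides, which were scanned one at a time, so slide and scan cannot be told apart. Slide 1 held 12 h replicate 1 with 6 h replicates 1 and 2, and slide 2 held 12 h replicates 2 and 3 with 6 h replicate 3.

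**Figure D1:**
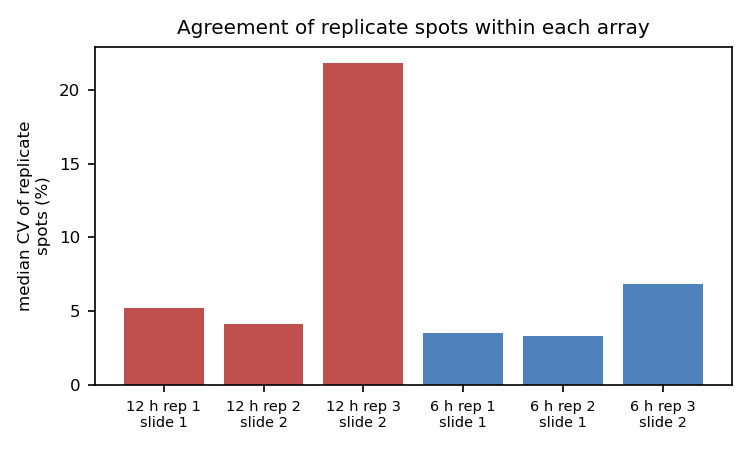
Bars give, for each of the 6 arrays, the median coefficient of variation in percent over the 1390 probes spotted 10 times, with 12 h arrays in red left of 6 h arrays in blue. The bar of 12 h replicate 3 reaches 21.8%, and the other 5 bars lie between 3.35% and 6.87%.

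The labelled cell type was checked against its markers. All 18 neuron markers that could be tested, among them Map2, Syt1, Elavl3 and Elavl4, were well above background in all 6 samples. The other cell types of such cultures were detected as well: 19 of 20 astrocyte markers were tested, and 11 of 18 microglia markers. Of these 11, 9 were well above background in all 6 samples, among them Csf1r, Cx3cr1, Tmem119 and C1qb. For P2ry12, Itgam and C1qa, also listed as microglia markers, no probe was well above background in every sample of either time. RNA of neurons and of glia was thus detected, and in such bulk samples fewer cells of a type and less RNA per cell cannot be told apart.

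No gene was called different between 12 h and 6 h. Of 19760 probes tested with limma, 0 passed an adjusted p of 0.05 (Benjamini-Hochberg over all probes), which is 0% of them, and the smallest adjusted p was 0.996. Without 12 h replicate 3 the count was again 0, and the smallest adjusted p was 1. Unadjusted limma p-values fell under 0.05 for 349 probes (1.77%), of which 287 (1.45%) were higher at 12 h and 62 (0.314%) were lower. Leaving out 12 h replicate 3 gave 435 higher and 84 lower. The differences were small: 96.8% of probes lay within 0.5 of 0, the median difference was 0.02, and 10 probes exceeded 1 while 37 lay below -1. The probes beyond these limits numbered 22 above and 5 below without 12 h replicate 3. The median SE of a difference was 0.154, and the median 95% interval reached 0.361 to either side, so differences smaller than that were not resolved for a typical probe. That interval is for a single probe without adjustment, and passing the adjusted threshold needs a larger difference. Met, with a difference of 0.565 and an SE of 0.144, had a limma adjusted p of 0.996. A p that misses the threshold does not show that 12 h and 6 h are alike.

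Differences taken from samples that share no array did not run together. Within slide 1 and within slide 2, which hold different samples of both times, differences correlated at r = -0.0956 across 18776 probes, and 47.7% of probes had the same sign. Without 12 h replicate 3 the values were -0.142 and 44.1%. The 6 h sample of replicate 2 was on slide 1 and its 12 h sample on slide 2. These 2 samples deviated together from the means of their times (r = 0.245). What they share enters the 2 slides with opposite signs and lowers both values. The slide values therefore cannot show whether a change with time was shared. Differences between same-numbered samples correlated at -0.107 for pairs 1 and 2, -0.0609 for pairs 1 and 3, and 0.0347 for pairs 2 and 3. Probes are not independent replicates, and these correlations describe the 6 samples.

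Although none passed the test, some genes had all 3 levels at 12 h on one side of all 3 levels at 6 h. Among all probes tested, 769 (3.89%) had all 12 h levels higher and 421 (2.13%) had all 12 h levels lower, 6.02% together. With 12 h replicate 3 left out, the shares were 7.97% higher and 5.77% lower. The 10 named genes in each direction with the smallest p both with and without 12 h replicate 3 are described next. They were picked for these values, so they are a description and carry no test beyond the adjusted p of 0.996 that each had in limma.

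The 10 genes higher at 12 h have unlike known roles. Most had dim probes: Carf, Met, Rab43, Calhm2, Cplane2, Or1j15 and Vsig8 had means of -4.77 or lower at both times. They were well above background in all 6 samples, as the rule required, but dim signals depend more on how background is subtracted. Carf, a calcium-responsive transcription factor that binds the Bdnf promoter in rat neurons, had levels of -5.03, -5.22 and -5.10 at 12 h, against -5.47, -5.60 and -5.82 at 6 h, a difference of 0.52 (SE 0.13). Sp4, a zinc-finger transcription factor enriched in neurons, had -3.009, -3.15 and -3.01 at 12 h, against -3.33, -3.48 and -3.60 at 6 h, a difference of 0.41 (SE 0.12). In both genes the lowest 12 h level lay above the highest 6 h level, and the difference was 0.51 within slide 1 and 0.66 within slide 2 for Carf and 0.39 and 0.52 for Sp4. A second probe of Sp4 gave 0.22. Met, the receptor tyrosine kinase for hepatocyte growth factor, had -4.81, -5.18 and -4.92 at 12 h, against -5.38, -5.55 and -5.67 at 6 h, and its difference was 0.565 (SE 0.14). Eif3j, a subunit of translation initiation factor eIF3, had 0.45, 0.34 and 0.38 at 12 h, against 0.10, -0.10 and -0.03 at 6 h, a difference of 0.40 (SE 0.11). Its second probe gave a smaller difference of 0.10.

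Of the other genes of this direction, Rab43, a small GTPase of the Golgi, had -5.02, -5.135 and -5.33 at 12 h, against -5.60, -5.64 and -5.54 at 6 h. Calhm2, a calcium homeostasis modulator that forms large-pore channels, had -4.69, -4.80 and -4.82 at 12 h, against -5.24, -5.24 and -5.06 at 6 h. Cplane2, which acts in the assembly of cilia, had -4.84, -4.99 and -5.00 at 12 h, against -5.36, -5.33 and -5.405 at 6 h, and its 6 h levels lay within 0.08 of each other. The remaining genes, the olfactory receptor Or1j15, the lysozyme-like Lyzl6 and Vsig8, differed by 0.48, 0.41 and 0.52. Within each slide the 10 differences ran from 0.25 to 0.66. Because these genes were picked for levels that do not overlap, leaving out samples or splitting the slides could not turn their sign. Other scalings and background corrections could have turned it and did not.

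The 10 genes lower at 12 h likewise have unlike known roles. Among them Bst2, Upk1a, Mepe and Unc13b were dim, with means of -4.675 or lower at both times. Tenm4, a teneurin, which is a transmembrane adhesion protein of neurons, had -2.41, -2.63 and -3.09 at 12 h, against -1.89, -1.87 and -2.11 at 6 h. Its difference was -0.75 (SE 0.19) and -0.56 without 12 h replicate 3, the lowest of the 12 h samples. Rapgef5, an exchange factor that activates Rap GTPases, had -3.27, -3.26 and -3.31 at 12 h, against -3.005, -2.91 and -2.93 at 6 h, with SDs of 0.029 at 12 h and 0.05 at 6 h (n = 3 each) and a difference of -0.33. Ddn, encoding dendrin, a protein of dendrites and postsynaptic densities, had -2.66, -2.41 and -2.66 at 12 h, against -2.07, -2.37 and -2.20 at 6 h, and its 12 h and 6 h samples were separated by 0.03 at the nearest. Unc13b, a priming factor for synaptic vesicles, had -5.13, -5.28 and -5.14 at 12 h, against -4.91, -4.91 and -4.95 at 6 h, a difference of -0.26 (SE 0.11).

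Kcnc1, the potassium channel Kv3.1 of fast-spiking neurons, had -3.90, -4.06 and -4.64 at 12 h, against -3.83, -3.69 and -3.59 at 6 h. Here 12 h replicate 3 lay far below the other 5 samples, and the difference of -0.495 shrank to -0.28 without it. Bst2, known as tetherin, an interferon-induced protein that holds budding viruses at the membrane, had -6.22, -6.17 and -6.30 at 12 h, against -5.90, -5.41 and -5.975 at 6 h. Ehbp1l1, which links Rab8 to membrane traffic, and Ccdc71 differed by -0.40 and -0.35. Upk1a, a tetraspanin of the bladder lining, differed by -0.33, and Mepe, a bone matrix protein, differed by -0.605.

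**Figure D2:**
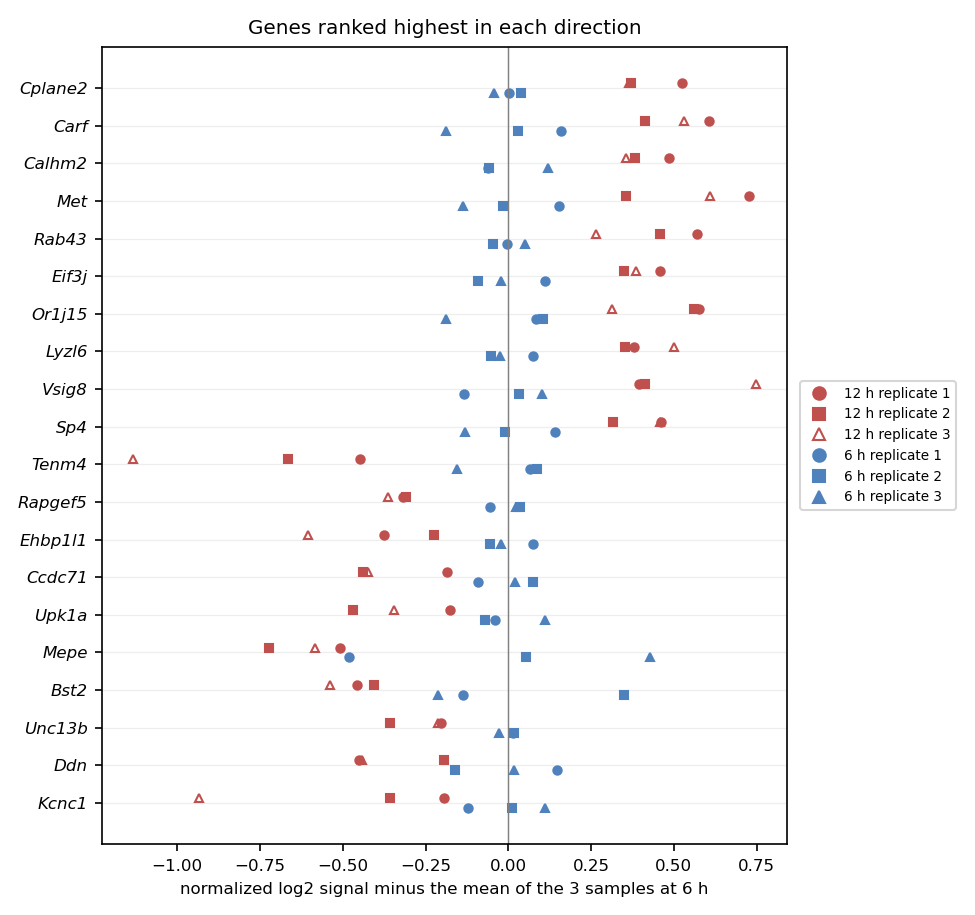
Each row is a gene, and symbols give the level in each sample as normalized log2 signal minus the mean of the 3 samples at 6 h, with 12 h in red and 6 h in blue and open red triangles for 12 h replicate 3. The upper 10 genes have all red symbols right of the blue ones and the lower 10 have them left, as the rule for choosing them required, and Tenm4 and Kcnc1 have their most distant point in 12 h replicate 3.

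For 3 genes the probe was well above background in all 12 h samples and in none of the 6 h samples, so that only a bound can be given: the mean at 12 h was set against the higher of the probe's own signal and the lowest signal well above background on each 6 h array. With the main background method the bound was 1.4-fold for Rcvrn, which encodes the photoreceptor calcium sensor recoverin. Its measured means were -6.01 at 12 h and -6.54 at 6 h. For Neurl1b, a ubiquitin ligase that acts on Notch ligands, the bound was 1.37-fold, from -6.21 at 12 h and -7.01 at 6 h. For Ctxn3, a cortexin, it was 1.23-fold, from -6.36 at 12 h and -7.42 at 6 h. These bounds depend on the background method and are not lower limits under another one. With normexp the differences in mean log2 signal were 0.21 for Rcvrn, 0.15 for Neurl1b and 0.26 for Ctxn3. Each lay below the bound, which was 0.48, 0.45 and 0.30 in the same order. The 3 genes were chosen for being detected at 12 h alone, so their direction follows from that choice and is not a result. Their adjusted p was 0.996 in limma, and no gene was found with the opposite pattern.

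A set of 26 genes from the pathways that hydroxyurea, activity and stress engage was followed in every sample. Npas4, a transcription factor induced by neuronal activity, was not well above background in any of the 6 samples, and 25 genes were tested. In 4 of them the 12 h and 6 h levels did not overlap: Lpin1, Dbp, Cdkn1a and Fkbp5, against 3.42% of all named genes not overlapping with 12 h higher and 2.26% with 12 h lower. Their promoters are printed here because these are the followed genes with separated samples, and the letters let the separation be read beside the motifs of the regulators they are best known for. The sequences are from RefSeq on rat build GRCr8 and run, 5′ to 3′ on the strand of the gene, from 250 bases before its start to 50 after it. Lpin1 is at chr6:45108893-45109192 on the minus strand, Dbp at chr1:105312006-105312305 on the plus strand, Cdkn1a at chr20:7150682-7150981 on the plus strand and Fkbp5 at chr20:6543506-6543805 on the minus strand. Capitals mark matches on either strand to a p53 half-site, to the E-box CACGTG, to the GC box GGGCGG, to the CCAAT box and to TGTTCT, the half-site of the glucocorticoid receptor. None of the marked stretches overlap.
Lpin1: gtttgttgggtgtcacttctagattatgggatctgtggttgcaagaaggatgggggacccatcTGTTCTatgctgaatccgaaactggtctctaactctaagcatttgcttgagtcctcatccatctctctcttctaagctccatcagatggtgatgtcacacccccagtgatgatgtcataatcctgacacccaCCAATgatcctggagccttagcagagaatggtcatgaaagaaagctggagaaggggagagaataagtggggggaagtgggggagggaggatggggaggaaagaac
Dbp: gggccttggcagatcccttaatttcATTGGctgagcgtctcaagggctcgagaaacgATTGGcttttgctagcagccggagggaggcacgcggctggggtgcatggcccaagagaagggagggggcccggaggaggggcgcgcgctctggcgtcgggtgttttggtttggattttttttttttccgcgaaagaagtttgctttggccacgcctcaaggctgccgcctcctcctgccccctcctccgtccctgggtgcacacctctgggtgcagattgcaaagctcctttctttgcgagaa
Cdkn1a: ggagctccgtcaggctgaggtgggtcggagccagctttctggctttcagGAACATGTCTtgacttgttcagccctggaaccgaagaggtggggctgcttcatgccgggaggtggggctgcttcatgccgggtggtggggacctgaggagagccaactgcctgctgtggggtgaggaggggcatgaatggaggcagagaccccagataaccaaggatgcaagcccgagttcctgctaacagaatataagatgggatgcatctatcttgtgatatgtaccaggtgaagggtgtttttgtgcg
Fkbp5: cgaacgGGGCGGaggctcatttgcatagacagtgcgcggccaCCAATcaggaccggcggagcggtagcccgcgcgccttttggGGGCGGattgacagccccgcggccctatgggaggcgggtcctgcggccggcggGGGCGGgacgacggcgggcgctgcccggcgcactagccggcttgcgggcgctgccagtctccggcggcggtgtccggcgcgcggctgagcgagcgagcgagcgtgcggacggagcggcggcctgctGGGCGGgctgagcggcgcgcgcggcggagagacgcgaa
Cdkn1a held 1 p53 half-site, GAACATGTCT, which starts 201 bases before the gene start. Such a match was found in 7.98% of 33469 promoters of the same length. The Lpin1 window held 1 CCAAT box, a motif found in 37.5% of promoters, and 1 glucocorticoid receptor half-site, found in 20.7%. In the Dbp window both capital stretches are CCAAT boxes on the opposite strand. Fkbp5 held 4 GC boxes, found in 33.1% of promoters, and 1 CCAAT box. The E-box, found in 6.42%, was in none of the 4 windows. A match is a description of letters and not a binding site, and a window without one says nothing of regulation elsewhere.

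Cdkn1a encodes p21, the inhibitor of cyclin-dependent kinases that p53 induces. It had levels of 3.28, 2.95 and 3.20 at 12 h, against 2.91, 2.54 and 2.90 at 6 h, a difference of 0.36 (SE 0.16) and of 0.33 without 12 h replicate 3. The samples were separated by only 0.035, because 12 h replicate 2 lay close to 6 h replicates 1 and 3. Replicate 2 was the lowest sample of each time. Its 6 h sample was on slide 1 and its 12 h sample on slide 2. The differences within slides therefore also hold the deviation of replicate 2. The difference was 0.56 within slide 1 and 0.18 within slide 2, and a second probe of the gene gave -0.07 (SE 0.32). The p53 half-site printed above is in the promoter of a gene whose 2 probes did not point the same way.

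Lpin1, a phosphatidate phosphatase of lipid synthesis that also acts as a transcriptional coregulator, had -5.47, -4.70 and -4.90 at 12 h, against -5.545, -5.84 and -5.56 at 6 h. Its difference was 0.63 (SE 0.21), but 12 h replicate 1 stood near the 6 h samples and the difference was 0.22 within slide 1 against 0.765 within slide 2. Dbp, a transcription factor of the circadian output, had 1.58, 1.57 and 1.58 at 12 h, against 1.51, 1.36 and 1.42 at 6 h. The 3 levels at 12 h lay within 0.012 of each other and the difference was 0.15, while the other probes of Dbp gave -0.16 and 0.06.

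Fkbp5, a co-chaperone induced by the glucocorticoid receptor, had 0.38, 0.25 and -0.37 at 12 h, against 0.46, 0.40 and 0.51 at 6 h. Most of its difference of -0.37 (SE 0.20) came from 12 h replicate 3, and it was -0.14 without that library.

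**Figure D3:**
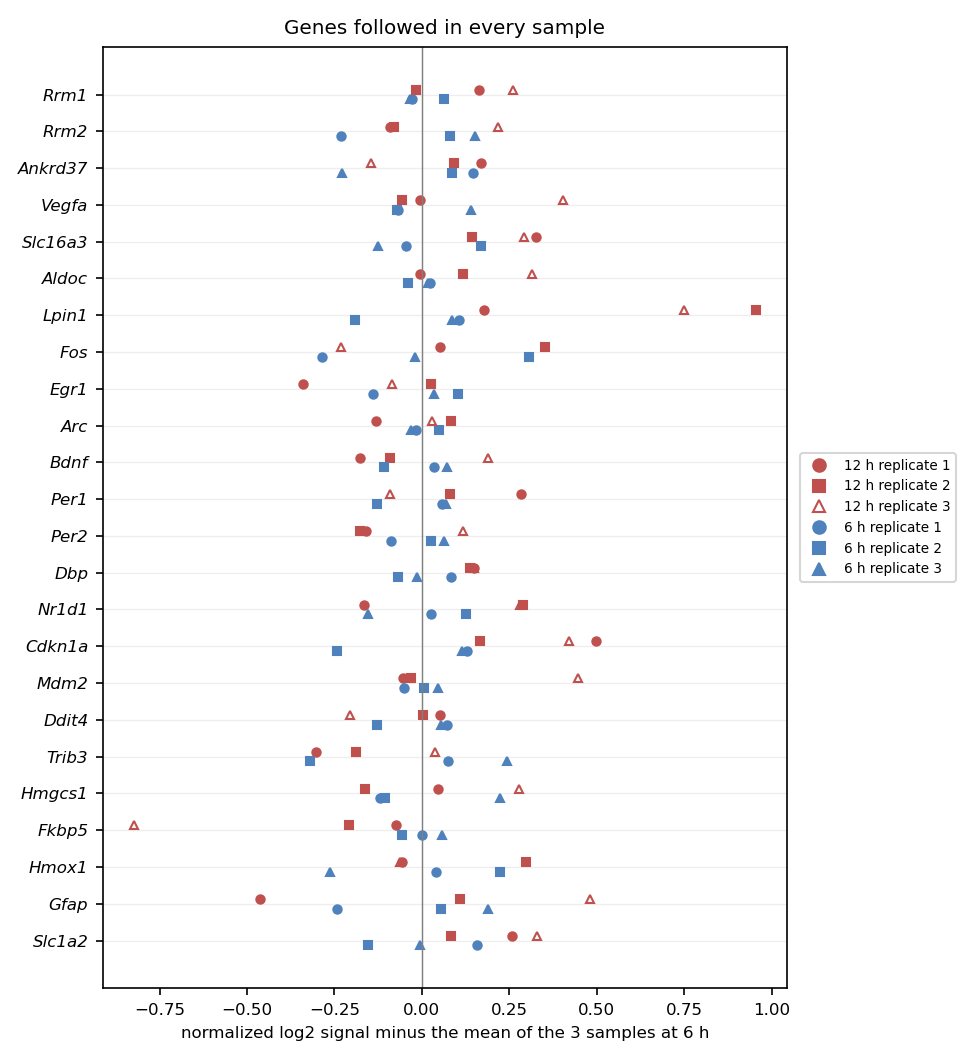
Each row is one of 24 followed genes, and symbols give the level in each sample as normalized log2 signal minus the mean of the 3 samples at 6 h, with 12 h in red and 6 h in blue and open red triangles for 12 h replicate 3. Red and blue symbols overlap in 20 genes, and the 4 without overlap are Lpin1, Dbp, Cdkn1a and Fkbp5.

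The 26 gene lists described next follow the pathways of the drug, the stress pathways, the neuronal functions and the cell types of the culture. No member of any list passed the test, against 0% of all probes, and each list is described by how many members averaged higher or lower at 12 h and by the median difference. Over all 19760 probes 56.2% averaged higher at 12 h with a median of 0.02, and over 10841 named genes 55.5% did, with a median of 0.02. Without 12 h replicate 3 the median over named genes was -0.001 and 49.8% averaged higher. A share near these values is not a result about a list. Of 694 distinct members tested, 20 (2.88%) had all 12 h levels above all 6 h levels and 13 (1.87%) had them below, against the 3.42% and 2.26% of all named genes given above. The shares lay near that background.

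Genes of deoxyribonucleotide supply, the pathway that hydroxyurea acts on, differed little. Of 16 members tested, 12 averaged higher and 4 lower, with a median of 0.02 and of 0.01 without 12 h replicate 3. Rrm1, the large subunit of ribonucleotide reductase, had -3.98, -4.16 and -3.88 at 12 h, against -4.17, -4.08 and -4.18 at 6 h, a difference of 0.135 (SE 0.12, 0.07 over 5 samples). Rrm2, the small subunit that carries the radical hydroxyurea quenches, had 3.07, 3.08 and 3.38 at 12 h, against 2.925, 3.24 and 3.31 at 6 h, a difference of 0.02 (SE 0.15, -0.085 over 5 samples). For both subunits the samples of the 2 times overlapped. Dck, a deoxynucleoside kinase of the salvage pathway, differed by 0.23 and by 0.05 without 12 h replicate 3. Tyms, thymidylate synthase, had the most negative, -0.24, which became 0.08 without 12 h replicate 3. Nme2, a nucleoside diphosphate kinase, differed by -0.075 (-0.005 over 5 samples).

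Of the p53 targets and checkpoint genes, 15 of 25 averaged higher and 10 lower, with a median of 0.04. Without 12 h replicate 3 these became 10 and 15, with a median of -0.03. Tp53inp1, a p53-induced regulator of apoptosis and autophagy, had -2.44, -2.83 and -2.68 at 12 h, against -2.84, -3.003 and -3.53 at 6 h, and besides Cdkn1a it was the member whose samples did not overlap. Its difference was 0.48 (SE 0.20), 0.485 within slide 1 and 0.78 within slide 2. Mdm2, the ubiquitin ligase that degrades p53, differed by 0.12 and by -0.04 without 12 h replicate 3, and its second probe gave -0.30. Phlda3, a p53-induced inhibitor of Akt signalling, and Ei24, another p53-induced gene, had the most negative differences, -0.35 (-0.20 over 5 samples) and -0.29 (-0.08 over 5 samples). Cell cycle genes were similar: 26 of 41 averaged higher and 15 lower, with a median of 0.02 (0.01 over 5 samples). Mcm6 and Mcm3, subunits of the same replicative helicase, differed by 0.21 and -0.26, and these became 0.04 and -0.005 without 12 h replicate 3. Cdk6, a G1 kinase, differed by 0.18, and Ccnb1, the mitotic cyclin B1, by -0.26 (-0.01 over 5 samples).

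Targets of the hypoxia factor HIF, whose degradation needs iron-dependent hydroxylases, and glycolytic genes had 21 members higher and 18 lower of 39, with a median of 0.04 and of 0.01 without 12 h replicate 3. Pfkfb3, which makes the activator of phosphofructokinase, had -4.51, -4.09 and -4.54 at 12 h, against -4.655, -4.585 and -5.33 at 6 h. Its difference was 0.48 (SE 0.23) but 0.11 within slide 1 and 1.02 within slide 2, because 6 h replicate 3 was the lowest sample. A second Pfkfb3 probe gave 0.80 and was well above background in 1 of the 6 h samples. Ak4, a mitochondrial adenylate kinase, had -4.18, -4.615 and -3.83 at 12 h, against -4.55, -4.82 and -4.84 at 6 h, a difference of 0.53 (SE 0.21, 0.345 over 5 samples), with 12 h replicate 2 inside the range of the 6 h samples. The followed targets Ankrd37, Vegfa, Slc16a3, a lactate exporter, and Aldoc, an aldolase of brain, differed by 0.04 (0.13 over 5 samples), 0.11 (-0.03 over 5 samples), 0.25 and 0.14 (0.06 over 5 samples), and all of them overlapped. Further Vegfa probes gave 0.25 to 0.43. P4ha1, a collagen prolyl hydroxylase, and Kdm3a, a histone demethylase, had the most negative differences, -0.29 and -0.28, which were -0.04 and 0.02 without 12 h replicate 3.

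Immediate early and activity-regulated genes, which report synaptic activity within minutes to hours, split 23 higher and 16 lower of 39. Their median was 0.06, and -0.03 without 12 h replicate 3. Fos had -4.72, -4.42 and -5.008 at 12 h, against -5.06, -4.47 and -4.795 at 6 h. The zinc-finger factor Egr1 differed by -0.13, the synaptic protein Arc by -0.01 (-0.02 over 5 samples) and the neurotrophin Bdnf by -0.03 (-0.13 over 5 samples). For these 4 genes the levels at 12 h and 6 h overlapped. Of the list, Nptx1 and Ier3 did not overlap, in opposite directions. Ier3, an immediate early gene, had -3.95, -4.20 and -4.14 at 12 h, against -4.30, -4.25 and -4.24 at 6 h, a difference of 0.17, and was singled out after its values were seen. Nptx1, a pentraxin that clusters AMPA receptors, had -0.96, -0.815 and -0.91 at 12 h, against -0.60, -0.75 and -0.67 at 6 h, a difference of -0.22 (SE 0.11). Inhba and Fosb had the largest positive differences, 0.26 and 0.20, and Sik1, a kinase induced by cAMP, differed by -0.16 (0.04 over 5 samples).

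Among clock genes 10 of 18 averaged higher and 8 lower, with a median of 0.06, and 0.02 without 12 h replicate 3. Clock, the partner of Bmal1 in the activating arm, differed by 0.33 (SE 0.17), but a second probe gave -0.49. Bmal1 differed by -0.26, and by -0.02 without 12 h replicate 3. Of the repressor arm, Per1, Per2 and Per3 differed by 0.09 (0.18 over 5 samples), -0.07 (-0.17 over 5 samples) and -0.20 (0.09 over 5 samples), and Nr1d1, the nuclear receptor that represses Bmal1, differed by 0.135 (0.06 over 5 samples). Tef, related to Dbp, had 0.165, 0.42 and 1.74 at 12 h, against -0.16, 1.36 and -0.40 at 6 h, and its difference of 0.51 (SE 0.55) became 0.03 without 12 h replicate 3. Genes of the glucocorticoid response had a median of -0.07, with 7 of 16 higher, which became 0.04 without that library. Zbtb16, a zinc-finger repressor induced by glucocorticoids, differed by 0.40 (0.255 over 5 samples), Nr3c1, the receptor itself, by 0.145 (0.09 over 5 samples), and Errfi1 by -0.355 (-0.11 over 5 samples).

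In several biosynthetic and stress lists replicate 3 was the highest sample at both times. Genes of the integrated stress response and amino acid supply, the program driven by ATF4, had mean levels of 0.46, 0.41 and 0.91 at 12 h, against 0.56, 0.42 and 0.67 at 6 h. Replicate 3 was the highest sample at 12 h for 26 of 30 members and the highest at 6 h for 18, and for 17 members it was the highest at both times. With all samples 23 members averaged higher at 12 h and the median was 0.06, whereas without 12 h replicate 3 only 6 averaged higher and the median was -0.095. Leaving out replicate 3 of both times, a choice made after seeing the data, gave 12 higher and a median of -0.025. Ppp1r15a, the phosphatase subunit that reverses the response, had 0.67, 0.73 and 0.87 at 12 h, against 0.61, 0.43 and 0.46 at 6 h, a difference of 0.255 (SE 0.12). Chac1, which degrades glutathione, differed by 0.25 and by 0.08 without 12 h replicate 3. Slc7a5, a transporter of large neutral amino acids, was lower in both settings, -0.305 and -0.23, as was the pseudokinase Trib3, -0.15 and -0.25. Ddit4, an inhibitor of mTORC1, differed by -0.05 (0.03 over 5 samples).

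Cholesterol and fatty acid synthesis genes showed the same order of samples at both times. Mean levels were 1.33, 1.23 and 1.52 at 12 h, against 1.38, 1.21 and 1.53 at 6 h, and replicate 3 was the highest sample at both times for 20 of 35 members. The list had 17 members higher, 18 lower and a median of 0, which became 5 higher, 30 lower and -0.12 without 12 h replicate 3. Within slide 1 the median was 0.06, against -0.16 within slide 2, so the slides pointed in opposite directions. Without replicate 3 of both times 13 members averaged higher, with a median of -0.03. Hmgcs1, an early enzyme of cholesterol synthesis, had 6.61, 6.40 and 6.845 at 12 h, against 6.45, 6.46 and 6.79 at 6 h. Fdft1, squalene synthase, had 2.80, 2.46 and 1.36 at 12 h, against 2.65, 2.67 and 2.96 at 6 h, where 12 h replicate 3 alone was low, and its difference of -0.55 became -0.13 without it. Nsdhl, a sterol dehydrogenase, differed by -0.26 (-0.12 over 5 samples), and Scd, a fatty acid desaturase, by 0.17 (-0.01 over 5 samples).

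Ribosomal protein genes had 57 of 70 members higher at 12 h, a median of 0.09, and mean levels of 5.92, 5.90 and 6.10 at 12 h, against 5.76, 5.85 and 6.05 at 6 h. The median depended on the scaling. It fell to 0.011 under quantile normalization, where the median of all probes was 0.014. With array median scaling it was 0.092, and with normexp 0.111. Both replicate 3 samples were the highest of their time, in 54 members at 12 h and 64 at 6 h. Without 12 h replicate 3, 47 members averaged higher and the median was 0.02, and the median was 0.12 within slide 1 against -0.04 within slide 2. In same-numbered samples the mean level was higher at 12 h by 0.16, 0.055 and 0.05 in pairs 1, 2 and 3, and without replicate 3 of both times 65 members averaged higher, with a median of 0.10. Rpl8 was the 1 member whose samples did not overlap, with 6.37, 6.32 and 6.75 at 12 h, against 6.14, 6.215 and 6.255 at 6 h, a difference of 0.28 that became 0.14 without that library. Rpl6 differed by -0.13 (0.06 over 5 samples), and Rps21 by -0.43, which became -0.04 without 12 h replicate 3. Nuclear genes of the respiratory chain had mean levels of 3.54, 3.58 and 3.73 at 12 h, against 3.49, 3.59 and 3.73 at 6 h, with replicate 3 the highest at both times for 32 of 46 members. Of the 46, 28 averaged higher at 12 h with all samples and 8 without 12 h replicate 3, with medians of 0.02 and -0.055, and the first turned negative under quantile normalization (-0.02) and in the standard scores (-0.006). Without replicate 3 of both times 24 averaged higher, with a median of 0.01. Uqcrq, a subunit of complex III, was higher in both settings, 0.32 and 0.44. Sdhb and Sdhc, both subunits of complex II, differed in opposite directions, 0.15 (0.04 over 5 samples) and -0.23 (-0.07 over 5 samples), and Cox5a of complex IV differed by -0.23, which became -0.01. Both replicate 3 samples were on slide 2, as was 12 h replicate 2, which was not the highest in these lists, and the part of the slide was not tested.

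**Figure D4:**
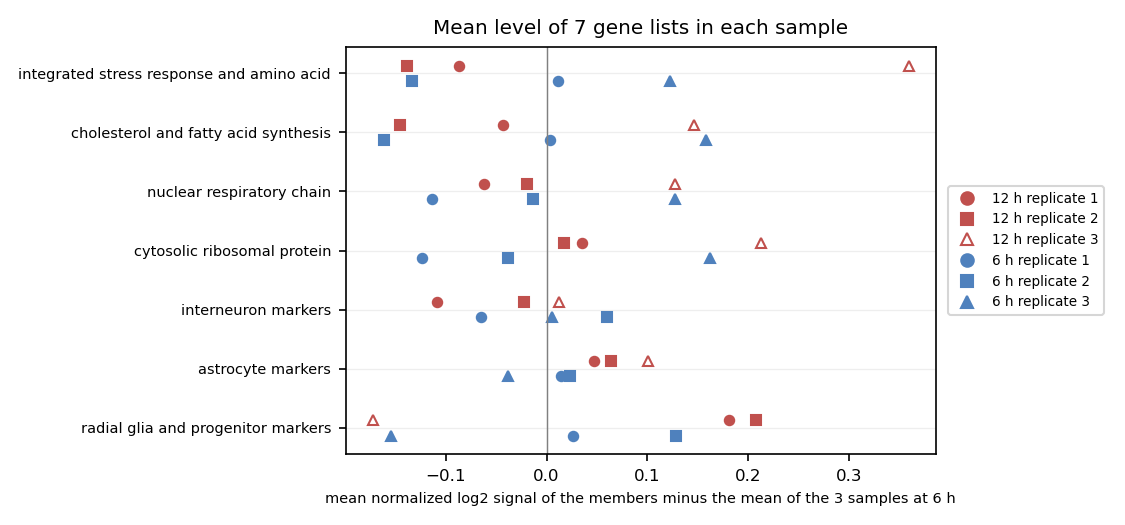
Each row is a gene list, and symbols give the mean normalized log2 signal of its tested members in each sample minus the mean of the 3 samples at 6 h, with 12 h in red and 6 h in blue and open red triangles for 12 h replicate 3. Triangles of both colours lie right of the other symbols in the integrated stress response, cholesterol, respiratory chain and ribosomal rows and left of them in the radial glia row, and in the astrocyte row all red symbols lie right of the blue ones.

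The other stress lists stayed near the background. ER chaperones and heat shock genes had 12 of 25 members higher and a median of -0.03 (-0.05 over 5 samples). Dnajc3 and Edem1, which act in protein folding and disposal in the endoplasmic reticulum, differed by 0.18 and 0.15 (0.09 over 5 samples). Hsp90b1, its HSP90 chaperone, and Dnaja1, a cytosolic co-chaperone, differed by -0.43 and -0.32, and these became -0.08 and -0.14 without 12 h replicate 3. NRF2 and antioxidant genes had 21 of 35 higher and a median of 0.03. Hmox1, heme oxygenase, had -0.90, -0.55 and -0.91 at 12 h, against -0.81, -0.63 and -1.11 at 6 h. Ftl1, the ferritin light chain that stores iron, did not overlap, with 7.62, 7.61 and 7.605 at 12 h, against 7.43, 7.36 and 7.57 at 6 h, a difference of 0.16 (SE 0.11). Prdx6, a peroxiredoxin, differed by 0.16, and the glutathione transferases Gstp1 and Gsta4 by -0.22 (0.025 over 5 samples) and -0.22 (-0.01 over 5 samples).

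Lysosome and autophagy genes had 21 of 35 higher and a median of 0.06, which was -0.02 without 12 h replicate 3. Mcoln1, a calcium channel of the lysosome, had 0.90, 0.83 and 1.07 at 12 h, against 0.73, 0.695 and 0.70 at 6 h, and it differed by 0.22 (SE 0.115) with no overlap. Ulk2, a kinase that starts autophagy, differed by 0.26, and the autophagy receptor Optn by -0.22 (-0.09 over 5 samples), with other probes at 0.08 and -0.33. Interferon and inflammatory genes had 19 of 35 members bright enough to test, 8 of them higher, with a median of -0.05 and of 0.07 without 12 h replicate 3. Irf9, part of the interferon-activated transcription complex, had -3.65, -3.66 and -3.98 at 12 h, against -2.39, -3.52 and -3.73 at 6 h, in which 6 h replicate 1 alone was high. Psmb8, an immunoproteasome subunit, and Isg20, an exonuclease, differed by 0.13 (0.23 over 5 samples) and 0.10.

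Neuronal signalling genes were split evenly. Glutamate receptor and postsynaptic genes had 22 of 41 higher and a median of 0.03 (0.01 over 5 samples). Camk2b, a subunit of the calcium kinase of the postsynaptic density, had 1.40, 1.48 and 0.43 at 12 h, against 1.64, 1.47 and 1.64 at 6 h, and Cacng2, the AMPA receptor partner stargazin, had 1.22, 1.16 and 0.13 at 12 h, against 1.13, 1.36 and 1.26 at 6 h. In both the 12 h replicate 3 sample alone was low, and their differences of -0.48 and -0.41 became -0.14 and -0.06 without it. A second Camk2b probe gave 0.15. Dlg2, the scaffold PSD-93, differed by 0.33 (0.11 over 5 samples). Grin2d, an NMDA receptor subunit, had 5.875, 4.40 and 4.64 at 12 h, against 4.56, 4.51 and 4.87 at 6 h, in which 12 h replicate 1 alone was high.

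Of the GABA-A receptor and ion channel genes 27 of 45 were higher, with a median of 0.025 (0.004 over 5 samples). Kcnj3, the potassium channel GIRK1 that opens downstream of inhibitory receptors, had -0.30, -1.08 and -0.76 at 12 h, against -1.11, -1.27 and -1.29 at 6 h. All 12 h samples lay above all 6 h samples, and its difference was 0.51 (SE 0.20), 0.53 without 12 h replicate 3, 0.89 within slide 1 and 0.37 within slide 2. Gabra3 and Gabrb1, subunits of the GABA-A receptor, differed by 0.46 and -0.47, which became 0.17 and -0.01 without 12 h replicate 3. Presynaptic release genes had 16 of 37 higher and a median of -0.01 (-0.08 over 5 samples), which turned to 0.06 when the background was corrected by normexp. Syt1, the calcium sensor of vesicle fusion, had -3.06, -3.09 and -2.12 at 12 h, against -3.14, -3.43 and -3.13 at 6 h, and its difference of 0.48 became 0.16 without 12 h replicate 3. Rab3a, a GTPase of synaptic vesicles, differed by -0.43 and by -0.12 without that library, Nsf, the ATPase that takes SNARE complexes apart, by -0.275 (-0.14 over 5 samples), and Unc13a, a relative of Unc13b, by 0.315 (0.07 over 5 samples).

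Among cell-type markers, those of astrocytes and of radial glia averaged higher at 12 h and those of interneurons lower, by their medians. No member passed the test. The sign was the same with all samples, without 12 h replicate 3 and within each slide. These views draw on the same 6 samples, so they are not separate results, and the lists are named for that sign out of 26. Astrocyte markers had 15 of 19 higher and a median of 0.07, which was 0.05 without 12 h replicate 3, 0.06 within slide 1 and 0.11 within slide 2. Their mean levels were 2.61, 2.63 and 2.66 at 12 h, against 2.58, 2.59 and 2.525 at 6 h, and their summed signal, in multiples of the array's 75th percentile, ran from 421 to 441 at 12 h, against 398 to 400 at 6 h. The 12 h samples thus lay above the 6 h samples by both measures. The sum weighs bright members most, such as Aldoc and Apoe, and both measures draw on the same members, so they are not separate results. Apoe, the lipid carrier that astrocytes secrete, had 7.215, 7.195 and 7.20 at 12 h, against 7.10, 6.99 and 7.04 at 6 h, a difference of 0.16 with no overlap; it was singled out after its values were seen. Slc1a2, the glutamate transporter GLT-1, differed by 0.22, its second probe by 0.23, and Slc4a4, a bicarbonate transporter, by 0.275 (0.13 over 5 samples), its second probe by -0.03. Gfap, the intermediate filament of astrocytes, had -1.66, -1.09 and -0.72 at 12 h, against -1.44, -1.15 and -1.01 at 6 h, with no separation. Glul, glutamine synthetase, and Clu differed by -0.16 (0.07 over 5 samples) and -0.07 (0.045 over 5 samples).

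Radial glia and progenitor markers had 8 of 12 higher and a median of 0.06, and without 12 h replicate 3 all 12 averaged higher with a median of 0.11. The medians were 0.15 within slide 1 and 0.25 within slide 2. Mean levels were 0.50, 0.53 and 0.15 at 12 h, against 0.345, 0.45 and 0.16 at 6 h, so the times overlapped and replicate 3 was the lowest sample of each time. Nes, the intermediate filament nestin, had 1.96, 2.07 and 2.385 at 12 h, against 1.91, 1.925 and 1.87 at 6 h, a difference of 0.24 (0.11 over 5 samples) with no overlap, and its second probe gave 0.26. The Notch targets Hes5 and Hes1 differed by 0.29 and -0.07 (0.02 over 5 samples), and Sox2, a transcription factor of neural progenitors, by -0.08, which became 0.17 without 12 h replicate 3. Summed signal ran from 110 to 123 at 12 h and from 104 to 116 at 6 h.

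Interneuron markers had 5 of 15 higher and a median of -0.09, which was -0.05 without 12 h replicate 3, -0.16 within slide 1 and -0.14 within slide 2. Mean levels were -0.43, -0.345 and -0.31 at 12 h, against -0.39, -0.26 and -0.32 at 6 h, and those of the 2 times overlapped. Reln, the secreted protein reelin, had -1.13, -1.165 and -1.075 at 12 h, against -0.895, -1.02 and -0.95 at 6 h, with no overlap, and was likewise singled out after its values were seen. Slc32a1, the transporter that loads GABA into vesicles, differed by -0.20 (-0.39 over 5 samples), and Calb1, a calcium buffer, by -0.33, which became -0.05 without 12 h replicate 3. Gad2, which makes GABA, and Nos1, neuronal nitric oxide synthase, averaged higher, by 0.29 (0.12 over 5 samples) and 0.345. Summed signal ran from 46.3 to 63.4 at 12 h and from 49 to 62.6 at 6 h.

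The remaining marker lists overlapped between the times. Neuron markers had 9 of 18 higher and a median of 0.035 (-0.04 over 5 samples), with summed signals of 252 to 300 at 12 h and 240 to 291 at 6 h. Map2, a microtubule protein of dendrites, differed by 0.34 (0.20 over 5 samples), and the RNA-binding proteins Elavl3 and Elavl4 by -0.125 and -0.16 (-0.05 over 5 samples). Microglia markers had 8 of 11 higher and a median of 0.12, with summed signals of 3.88 to 4.86 at 12 h and 3.85 to 4.11 at 6 h. Of the 11 tested, 9 were well above background in all 6 samples, and the rest in every sample of 1 time only. The largest difference of the list, 1.29, belonged to one of the rest, so the count, median and sums may partly follow from the filter. Without 12 h replicate 3, 6 of 11 averaged higher with a median of 0.15. Within slide 2 the median was -0.025. Csf1r and Cx3cr1, receptors of microglia, differed by 0.17 and 0.17, Tmem119 by -0.28 (-0.08 over 5 samples) and the complement gene C1qb by -0.17 (-0.10 over 5 samples).

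Oligodendrocyte lineage markers had 8 of 14 higher and a median of 0.05 (0.11 over 5 samples), with summed signals of 27.6 to 36.8 at 12 h and 35.1 to 36.8 at 6 h. The lineage factors Sox10 and Olig2 differed by 0.37 and -0.34, the second becoming 0.07 without 12 h replicate 3, Gpr17, a receptor of precursors, by 0.22, and Cnp, a myelin enzyme, by -0.19 (0.08 over 5 samples). Fibroblast and pericyte markers had 5 of 11 higher and a median of -0.005 (0.06 over 5 samples), a sign that turned under quantile normalization (0.02), with summed signals of 19.7 to 34.2 at 12 h and 18.8 to 25.1 at 6 h. Col3a1, a collagen of fibroblasts, varied widely within each time, -3.10, -4.65 and -2.85 at 12 h, against -3.26, -4.44 and -1.80 at 6 h. Tagln, a smooth muscle protein, differed by -0.26 (0.08 over 5 samples), Vtn by 0.21 (-0.075 over 5 samples) and Igfbp2 by 0.21 (-0.07 over 5 samples). Only 5 of 16 endothelial and erythroid markers were tested, with summed signals of 2.66 to 3.93 at 12 h and 2.66 to 3.31 at 6 h. Among them Cdh5 and Pecam1, junction proteins of endothelium, differed by 0.34 (0.20 over 5 samples) and -0.11 (0.16 over 5 samples), the receptor Kdr by -0.27 and the globin Hba-a1 by 0.19 (0.05 over 5 samples). The part of glial or vascular cells in the gene differences above was not tested.

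Set side by side, the lists showed how far the direction rested on single samples. The median of 10 of 26 lists changed sign when 12 h replicate 3 was left out, and that of 9 lists when replicate 3 of both times was left out. Between same-numbered samples the mean level was higher at 12 h in all 3 pairs for 6 of 26 lists. They were deoxyribonucleotide supply, immediate early genes, clock genes, p53 targets, ribosomal proteins and astrocyte markers. The mean level was lower in all 3 pairs for the interferon list. Of 18776 single probes, 15.1% were higher in all 3 pairs and 7.67% lower, and the lists were not tested against these shares. Some differences were tiny: in pair 2 it was 0.001 for immediate early genes and 0.007 for deoxyribonucleotide supply. In 10 of 26 lists the medians within slide 1 and within slide 2, which hold no sample in common, had the same sign. Of single probes 47.7% did. Both shares are affected by the split of replicate 2 between the slides, so they do not decide whether the slides agree. In 7 lists all 4 medians, with all samples, without 12 h replicate 3 and within each slide, had the same sign: HIF targets, cell cycle, glutamate receptor, GABA-A receptor and ion channel, astrocyte and radial glia lists with 12 h higher, and interneuron markers with 12 h lower. For the first 4 of these the median with all samples was at most 0.04. The 4 medians of a list draw on the same 6 samples, so their shared sign is a description and not repeated evidence.

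**Figure D5:**
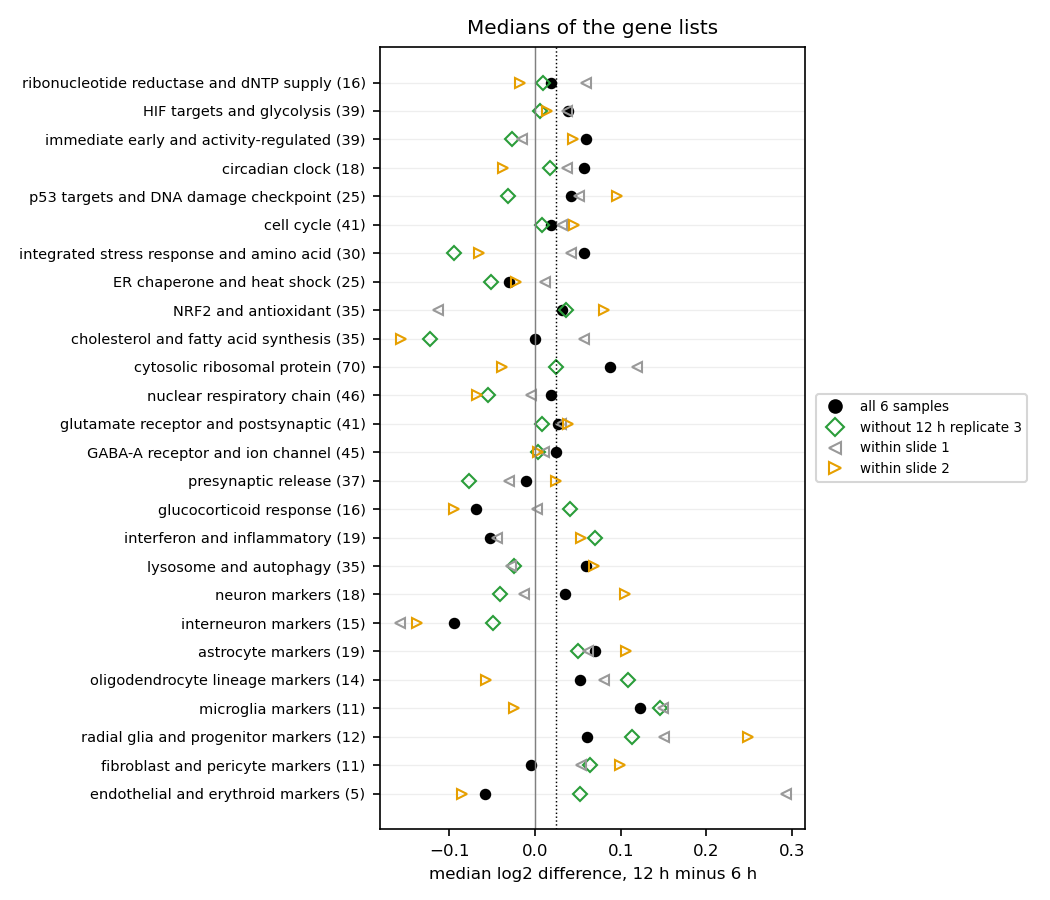
Each row is a gene list with its number of tested members, and symbols give the median log2 difference, 12 h minus 6 h, over all 6 samples (black), without 12 h replicate 3 (green) and within each slide (grey and orange), with a dotted line at 0.02, the median of all probes. Black symbols lie between -0.09 and 0.12, and in most rows the green, grey and orange symbols fall on both sides of 0.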

How the data were processed

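RNA of hippocampal neuron cultures was hybridised to 1-colour arrays. Per the file headers, the scanner files deposited by the authors hold the intensity of each spot from Feature Extraction 11.5.1.1, including a background-subtracted intensity not scaled between arrays, which is the one used here. The headers name build rn4 for the design. The series values deposited by the authors are a score per array, the standard score of the log signal, which matched the scanner files at r = 0.999996, and were used as an alternative. At 24 h the scores of replicate 1 fitted the scanner data of replicate 3 and the reverse, which leaves the mean at 24 h the same.

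The 4259 control spots of 62976 and all spots flagged as outliers were dropped, and the spots of each probe were averaged. Levels are log2 processed signals less the 75th percentile of their array. Of 30367 probes, 18758 matched 15715 gene symbols of RefSeq. A probe was tested if most of its spots were well above background in every sample of 1 time. A gene with several probes is given by the probe with the highest mean. The 12 h and 6 h samples alone were fitted with limma 3.58.1 in R 4.3.3 and version 1.17.8 of data.table (lmFit and eBayes, two-sided, 4 residual and 3.27 prior degrees of freedom, no covariate), with Benjamini-Hochberg adjustment and a threshold of 0.05. The script was tested on simulated data.

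Same-numbered samples deviated together (r = 0.141, 0.245 and 0.107 for numbers 1, 2 and 3), so the numbers in the sample titles were taken to pair the samples. The labels do not state this pairing. For normexp the median spot signal and median background were used, since the mean signal named in the plan is not a column of these files.

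Named genes are the 10 in each direction with non-overlapping samples and the smallest of the larger p with and without 12 h replicate 3, up to 3 bounds in each direction, up to 2 members in each direction of each list, and the followed genes. The samples, lists and followed genes were chosen with earlier results of these data known. Alternatives were other scalings, filters, samples and blocks. A few genes that these rules name are not reported here.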

Additional observations from a re-analysis of the deposited data

How the results depend on the processing

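The count of 0 probes past the threshold was the same in 24 of 25 alternatives, which left out each replicate (0 to 0), fitted all 15 or the 12 treated samples, added slide or array weights, changed the scaling, background or filter, or used the deposited scores. The exception was the comparison within slide 1, where 4 probes passed in limma. They were Adrb1, Tvp23a and the unnamed A_42_P674192 and A_64_P391863, with differences of 3.72, 2.66, 2.59 and 3.03 within slide 1, against -0.13, 0.27, 0.37 and -0.40 within slide 2. There 12 h is 1 sample, assumed to vary like the others, and the cause was not tested. The replicate block, which pairs same-numbered samples, changed no call, and its count was 0. Without 12 h replicate 3 and with slide as a block, and without replicate 3 of both times, choices made after seeing the data, it was 0.

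Counts at an unadjusted p under 0.05 moved more. They were 287 higher and 62 lower with all 6 samples, 417 and 87 with the replicate block, 230 and 339 without 12 h replicate 1, 734 and 276 without 12 h replicate 2, 141 and 23 without 6 h replicate 3, 743 and 136 within slide 1, 184 and 193 within slide 2, 532 and 165 with slide as a block over 16 arrays, 641 and 138 with slide as a block without 12 h replicate 3, 107 and 33 with normexp, and 361 and 176 of 30292 probes with no filter. Quantile normalization gave 71.4% of such probes higher, against 82.2% in the main scaling. Over the 25 alternatives the 20 ranked genes never changed sign (0 of 500 values), the 144 named genes did in 183 of 3597 values, and the medians of the 26 lists in 120 of 650. The ranked genes were picked for levels that do not overlap, so alternatives that only left out samples or split the slides could not turn their sign. Signal over background sets what can be tested: 19760 of 30367 probes met the filter.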

Other observations

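Levels at 2 and 24 h show where the genes that separated 12 h from 6 h stood at the neighbouring times. For Carf, Or1j15 and Lpin1 the mean at 12 h was the highest of the 4 times. Carf averaged -5.40 ± 0.35 at 2 h, -5.63 ± 0.175 at 6 h, -5.11 ± 0.10 at 12 h and -5.43 ± 0.21 at 24 h (normalized log2 signal, SD, n = 3 each). Or1j15 averaged -5.64 ± 0.025, -5.73 ± 0.16, -5.25 ± 0.15 and -5.69 ± 0.33 in the same order. Lpin1 averaged -5.93 ± 0.12, -5.65 ± 0.17, -5.02 ± 0.40 and -5.70 ± 0.30. For Rapgef5 and Tenm4 the mean at 6 h was the highest of the 4, and for Cdkn1a it was the lowest. Rapgef5 averaged -3.24 ± 0.16 at 2 h, -2.95 ± 0.05 at 6 h, -3.28 ± 0.03 at 12 h and -3.22 ± 0.08 at 24 h. Tenm4 averaged -2.40 ± 0.38, -1.96 ± 0.135, -2.71 ± 0.35 and -2.38 ± 0.18, and Cdkn1a 3.08 ± 0.315, 2.78 ± 0.21, 3.145 ± 0.175 and 3.16 ± 0.315. Eif3j was near its 12 h level at 2 h and near its 6 h level at 24 h, with 0.36 ± 0.08, -0.01 ± 0.10, 0.39 ± 0.06 and 0.05 ± 0.26. These genes were chosen for their 12 h and 6 h values, so their place among the 4 times is a description of means, and no difference to 2 or 24 h was tested.

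Probes that matched no gene symbol also separated the times. A_64_P033954 had levels of -5.10, -4.72 and -5.16 at 12 h, against -5.59, -5.60 and -5.76 at 6 h, a difference of 0.66 (SE 0.15) that was 0.74 without 12 h replicate 3. A_64_P039964 had -5.86, -5.90 and -5.98 at 12 h, against -5.41, -5.54 and -5.44 at 6 h, a difference of -0.45 (SE 0.11). Neither probe had a limma adjusted p under the threshold, and both were chosen after their values were seen.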
